A study of Mus musculus with 11 samples.

Results

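Endothelial cells line every blood vessel, and in the heart they form a dense capillary bed that passes oxygen, glucose and fatty acids to the muscle. They hold together through VE-cadherin and other junction proteins, respond to VEGF and angiopoietin through receptor kinases, and are kept in their identity by transcription factors of the ETS and SOX families. Capillary endothelium of the heart is also known for a programme of fatty acid transport driven by Meox2 and Tcf15. The genes described here are 37 listed markers and effectors of this cell type, chosen by symbol. A row of the deposited table was matched by its RefSeq accession for 34 of the 37, out of 21878 rows in all. Vwf, Gpihbp1 and Ecscr were not analysed here.

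The hearts came from female wild-type mice in 2 groups. The PCOS group (n = 5) had been exposed before birth to anti-Müllerian hormone (AMH), which gives female offspring features of polycystic ovary syndrome. The control group (n = 6) had been exposed before birth to vehicle, phosphate-buffered saline. Age, strain and litter are not given in the sources used here. Since no label states that each sample is a separate mouse, p-values reflect sample-to-sample spread that could be partly technical. Exposure was before birth, so any samples that shared a litter would not be independent, and intervals could then be too narrow. RNA came from whole heart tissue, in which fewer endothelial cells and less RNA per endothelial cell cannot be told apart.

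Values are FPKM, fragments scaled to transcript length and library size, which allow levels of different genes to be compared. Depth, read from the steps between values, was 11866291 to 14346620 reads per sample, and each of the 34 genes had at least 81 reads in every sample. The heart origin was plain in the markers of cardiomyocytes, whose 6 listed genes summed to between 22800 and 27800 FPKM in each sample. Among controls, replicate 6 was unlike the rest. Its median correlation with other samples, across genes, was 0.962, against 0.987 to 0.993 elsewhere, and its 6 hepatocyte markers summed to 1560 FPKM, against at most 8.65 FPKM in any other sample. The 3 markers of liver sinusoidal endothelium summed to 1.15 FPKM in it and to at most 0.883 FPKM elsewhere. All 3 were below 1 FPKM in every sample, and only Clec4g (0.88 FPKM) was highest in control replicate 6. Stab2 was highest in control replicate 4 and Oit3 in control replicate 3. Control replicate 4 was low in the endothelial genes themselves, with values given further on. The counts, and many of the differences, are therefore also given without control replicate 4 or 6.

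All 34 genes were expressed in every sample, and all passed the filter of a mean of at least 1 FPKM. Their means over the 11 samples ran from 5.32 FPKM for Sox17 to 879.7 FPKM for Fabp4. Fabp4, a fatty acid carrier of capillary endothelium that adipocytes also make, led the list, followed by the water channel Aqp1 at 192.9 FPKM and the surface protein Ly6c1 at 115.4 FPKM. The adipocyte hormone Adipoq was highest, at 1.77 FPKM, in control replicate 6, the library in which Fabp4 was also highest. Adipocyte markers summed to 11.8 FPKM there and to at most 2.28 FPKM elsewhere, and their part in the Fabp4 value was not tested. Ly6c1 has a near-identical neighbour, Ly6c2, and its level is uncertain for that reason. The lowest 3 were Sox17, the ETS factor Fli1 (5.90 FPKM) and Plvap (7.22 FPKM), which builds the diaphragms of fenestrated and caveolar vessels. Of the rest, 26 lay between 10 and 100 FPKM. Fabp4 lay above Aqp1, and Aqp1 above Ly6c1, in each of the 11 samples, whereas Cdh5 (54.4 FPKM) and Eng (53.9 FPKM), and Pecam1 and Rgcc (both 48.1 FPKM), could not be put in order.

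**Figure D1:**
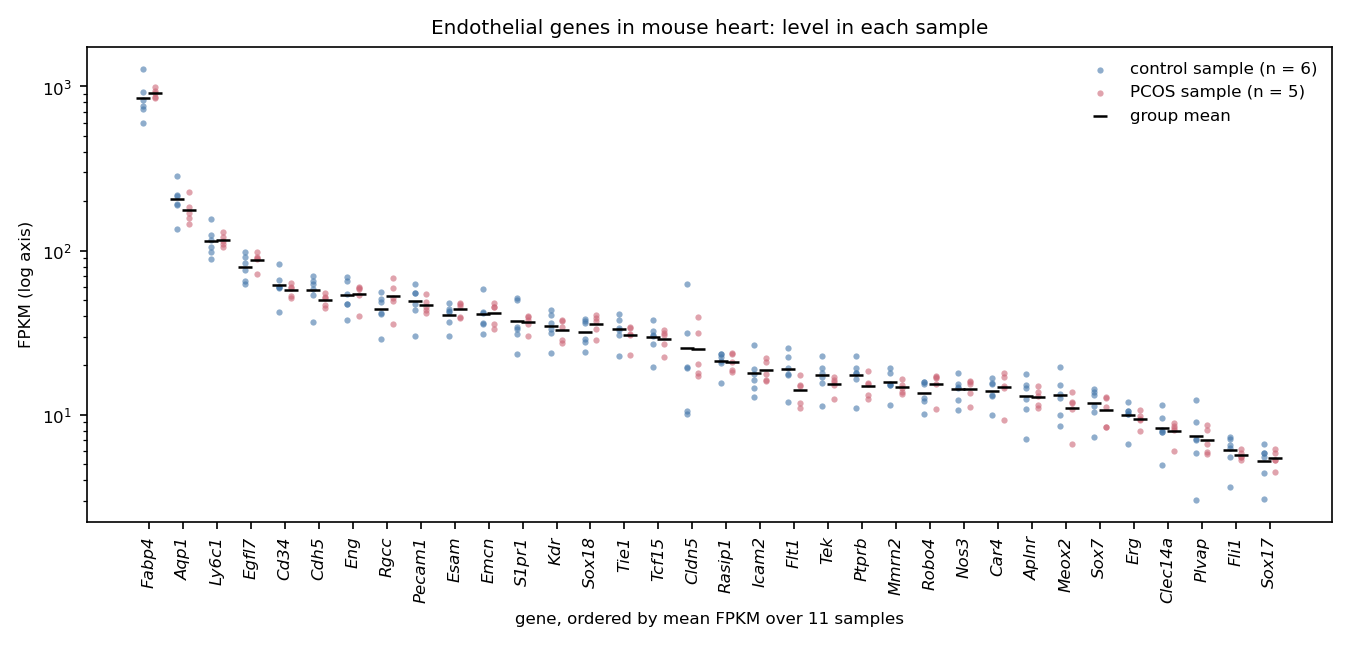
FPKM on a log axis of each of the 34 endothelial genes in 6 control and 5 PCOS hearts, with genes ordered by their mean over all samples. Points are samples and black marks are group means; the groups overlap in every gene, and Cldn5 has the widest scatter.

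No endothelial gene was called different between PCOS and control hearts. Of the 34 genes, 0 passed an adjusted p of 0.05 (limma, adjusted over all 10891 tested rows by the Benjamini-Hochberg method), where 0.138% of all tested rows did. At an unadjusted p under 0.05 there was 1 gene, Flt1, against 6.68% of all tested rows in either direction and 3.17% lower in PCOS. Limma's voom on the recovered reads also called 0, with 1 at an unadjusted p under 0.05. Directions were even on the log2 scale, with 17 genes lower and 17 higher in PCOS, while 49.4% of all rows were lower. By mean FPKM 21 were lower, because S1pr1, Aplnr, Cldn5 and Plvap had a lower PCOS mean but a log2 difference above 0; counts of lower and higher genes here are those of the log2 scale. The median log2 difference, taken as PCOS minus control with 1 added to each FPKM, was -0.001 for the endothelial genes and 0.002 for all rows. The groups overlapped in 34 of 34 genes, while 0.698% of all tested rows had groups that did not overlap.

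The intervals limit how large a difference these samples could hide. The 95% confidence interval lay within 1.5-fold in both directions for 30 of the 34 genes. It reached beyond 1.5-fold for Flt1, Cldn5, Meox2 and Rgcc. Differences ran from -0.39 for Flt1 to 0.24 for Rgcc. The median SE was 0.143 for the endothelial genes and 0.09 for all rows. All rows reach down to a mean of 1 FPKM, where adding 1 narrows the spread, so these SEs are not matched for level. These intervals and SEs are from the limma fit of all 11 samples. The count of 30 was not repeated in the alternatives. Leaving out control replicate 4 moved the median log2 difference from -0.001 to -0.113.

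**Figure D2:**
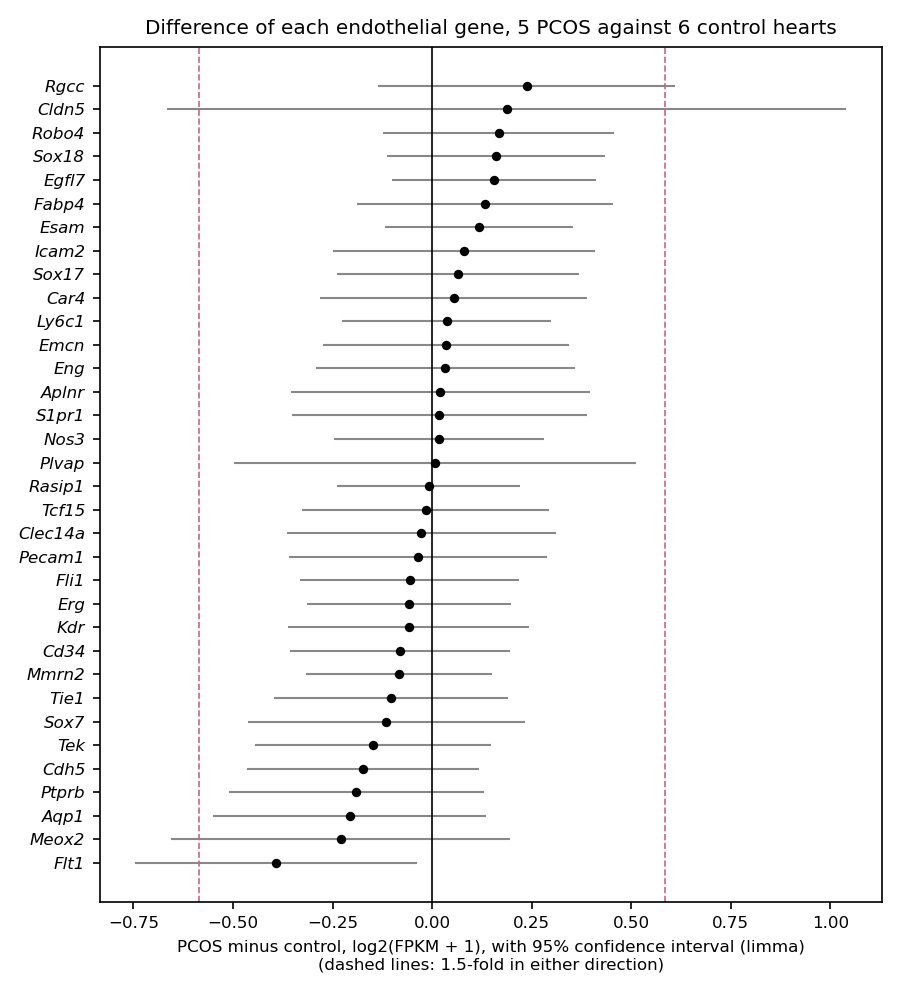
Difference of each of the 34 genes (PCOS minus control, log2(FPKM + 1)) with its 95% confidence interval from limma; dashed lines mark 1.5-fold. Flt1 is the only gene whose interval leaves out 0 before adjustment, and Cldn5 has the widest interval.

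The receptors were led by Flt1, which encodes VEGFR1, a decoy that binds VEGF and limits its signal. Flt1 ranged from 12.0 FPKM in control replicate 4 to 25.6 FPKM in control replicate 1, with a median of 18.5 FPKM. In PCOS replicates 1 to 5 it was at 11.8, 15.2, 11.1, 14.9 and 17.5 FPKM. Thus 2 PCOS samples lay below every control and the other 3 fell among the lower controls. The control mean was 19.1 ± 4.65 FPKM (SD, n = 6) and the PCOS mean 14.1 ± 2.63 FPKM (SD, n = 5), a log2 difference of -0.39 (SE 0.16, 95% confidence interval -0.75 to -0.04, limma adjusted p = 0.738). The difference kept its sign in all 20 alternatives, from -0.51 without control replicate 4 to -0.28 with Pecam1 and Cdh5 as a covariate. Its limma adjusted p was between 0.225 and 0.996. Without PCOS replicate 1, control replicate 1 or control replicate 5, 0 of the 34 genes had an unadjusted p under 0.05 (limma). Without PCOS replicate 3 the 1 gene that did was Robo4. The table has 1 row for Flt1, so its membrane-bound and soluble transcripts cannot be told apart.

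Kdr encodes VEGFR2, the receptor that carries most of the VEGF signal in endothelium. Its controls ran from 23.7 to 43.4 FPKM with a median of 34.7 FPKM, and PCOS replicates 1 to 5 were at 28.5, 37.2, 27.4, 34.3 and 37.8 FPKM. All PCOS samples lay inside the control range (log2 difference -0.06, SE 0.14, limma adjusted p = 0.922). The sign of the Kdr difference turned with sample weights, with the replicate number as a block, and with Pecam1 and Cdh5 as a covariate. It also turned without PCOS replicate 3 or control replicate 6. In Ptprb, the phosphatase that holds the angiopoietin receptor in check, controls ran from 11.03 to 22.8 FPKM and PCOS samples from 12.5 to 18.6 FPKM (log2 difference -0.19, SE 0.15, limma adjusted p = 0.793). For Ptprb, leaving out control replicate 4 gave -0.31, and leaving out control replicate 1 gave -0.11. Tek, the angiopoietin receptor, had a control mean of 17.4 ± 3.82 FPKM against 15.4 ± 1.70 FPKM in PCOS, and its partner Tie1 was at 33.2 ± 6.31 and 30.6 ± 4.48 FPKM. The TGF-beta co-receptor Eng (53.6 and 54.3 FPKM), the sphingosine receptor S1pr1 (37.3 and 36.6 FPKM), the apelin receptor Aplnr (13.0 and 12.8 FPKM) and the guidance receptor Robo4 (13.6 and 15.4 FPKM) are given as control and PCOS means. Of the 9 genes in this role, 5 were lower and 4 higher in PCOS on the log2 scale, where S1pr1 (0.02) and Aplnr (0.02) lay just above 0.

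The start regions of both VEGF receptor genes were read from RefSeq (GRCm38.p6, the assembly that mm10 carries), because ETS factors are known to act at endothelial promoters and Erg and Fli1 are both members here. RefSeq start regions were at hand for 18 of the 37 genes, as 23 windows of 250 bases before a start listed in that table. For Flt1 and Kdr the listed start lies inside the full span of the gene, so the gene's annotation reaches farther upstream. Searched on both strands, AGGAAG or CGGAAG, the letters ETS factors such as Erg prefer, occurred in 14 of the 23 windows (60.9%) and in 39.2% of 32851 windows of all genes. A SOX sequence, AACAAT, was in 13.0% of member windows and 9.4% of all. For GATA factors, the letters searched were AGATAA, found in 1 of 23 member windows and in 3281 of all 32851. These are letter matches, not binding sites, and some overlap. The windows of Flt1 and Kdr follow with those of Egfl7 and Rasip1, which hold matches, and Cldn5, whose values stand apart below. All are written 5′ to 3′ on the gene's strand, with the ETS letters in capitals.
Flt1, minus strand, chr5:147726012-147726261: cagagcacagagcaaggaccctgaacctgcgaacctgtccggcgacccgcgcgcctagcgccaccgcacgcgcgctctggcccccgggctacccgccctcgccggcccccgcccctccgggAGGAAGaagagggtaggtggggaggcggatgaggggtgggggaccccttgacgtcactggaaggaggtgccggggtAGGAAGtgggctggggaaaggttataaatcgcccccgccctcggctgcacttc
Kdr, minus strand, chr5:75978456-75978705: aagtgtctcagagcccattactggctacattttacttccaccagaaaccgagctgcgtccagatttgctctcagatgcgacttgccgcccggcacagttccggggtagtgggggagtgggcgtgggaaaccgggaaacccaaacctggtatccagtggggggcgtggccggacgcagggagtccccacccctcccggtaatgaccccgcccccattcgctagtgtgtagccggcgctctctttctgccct
Egfl7, plus strand, chr2:26580833-26581082: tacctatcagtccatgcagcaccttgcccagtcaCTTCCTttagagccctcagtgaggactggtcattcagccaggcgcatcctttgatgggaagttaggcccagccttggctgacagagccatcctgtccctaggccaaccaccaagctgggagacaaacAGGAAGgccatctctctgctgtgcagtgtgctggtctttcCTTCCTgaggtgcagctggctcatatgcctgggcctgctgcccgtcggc
Rasip1, plus strand, chr7:45627287-45627536: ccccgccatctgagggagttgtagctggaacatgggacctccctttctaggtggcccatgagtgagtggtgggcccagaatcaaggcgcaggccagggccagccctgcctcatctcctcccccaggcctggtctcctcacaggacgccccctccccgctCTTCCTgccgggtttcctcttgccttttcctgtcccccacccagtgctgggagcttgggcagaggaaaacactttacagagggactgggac
Cldn5, plus strand, chr16:18776597-18776846: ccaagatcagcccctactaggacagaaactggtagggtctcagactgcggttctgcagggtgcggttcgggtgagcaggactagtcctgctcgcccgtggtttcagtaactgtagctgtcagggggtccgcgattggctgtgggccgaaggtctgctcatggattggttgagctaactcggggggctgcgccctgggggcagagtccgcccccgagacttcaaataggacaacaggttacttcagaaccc

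The Flt1 window holds the ETS letters at 129 and 53 bases before the listed start, and those of Kdr and Cldn5 hold none. The Egfl7 window shown, before the first of its 3 listed starts, holds 3 matches, and Rasip1 holds 1. In CTTCCT the letters lie on the opposite strand. A window without a match says only that these letters are not in it.

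Junction and surface genes were split, with 5 of 11 lower and 6 higher in PCOS and none called. Cdh5, which encodes VE-cadherin of the adherens junction, ran from 36.7 FPKM in control replicate 4 to 69.9 FPKM in control replicate 1, with a control median of 60.8 FPKM. PCOS replicates 1 to 5 were at 46.9, 52.4, 44.99, 51.7 and 55.3 FPKM. All PCOS samples thus lay above control replicate 4 and below 4 of the other 5 controls (log2 difference -0.17, SE 0.14, limma adjusted p = 0.795). Leaving out control replicate 4 gave -0.30, and leaving out control replicate 1 gave -0.11. For Pecam1, the adhesion molecule CD31, controls ran from 30.3 to 63.0 FPKM around a median of 51.1 FPKM, and PCOS replicates 1 to 5 were at 43.8, 48.9, 42.0, 45.3 and 54.4 FPKM (log2 difference -0.04, SE 0.15, limma adjusted p = 0.958). Without control replicate 4 it was -0.17, and its sign turned without control replicate 1, 5 or 6 or PCOS replicate 3. The sign also turned with sample weights and with the replicate number as a block. Esam, an adhesion molecule of tight junctions, ran from 30.1 to 48.0 FPKM in controls and from 38.7 to 47.7 FPKM in PCOS (log2 difference 0.12, SE 0.11, limma adjusted p = 0.809; 0.04 without control replicate 4).

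The other surface genes lay close between the groups. Control and PCOS means were 40.9 and 41.6 FPKM for the sialomucin Emcn, 61.7 and 57.4 FPKM for Cd34, 17.9 and 18.7 FPKM for Icam2, and 114.8 and 116.1 FPKM for Ly6c1. They were 8.31 and 7.98 FPKM for Clec14a and 15.8 and 14.7 FPKM for Mmrn2, a matrix protein known as a ligand of Clec14a. Plvap was at 7.40 ± 3.10 FPKM in controls, where values ran from 3.02 to 12.3 FPKM, and between 5.77 and 8.63 FPKM in PCOS samples.

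Cldn5, the tight junction protein claudin-5, varied far more than any other member. Control replicates 1 to 6 were at 10.5, 19.7, 19.4, 10.1, 62.3 and 31.3 FPKM, and PCOS replicates 1 to 5 at 17.9, 31.3, 39.3, 17.2 and 20.5 FPKM. The coefficient of variation over the 11 samples was 59.6%, against a median of 18.6% over the 34 genes and 32.5% for Plvap, the next highest. Control replicate 5 held 342% of the mean of the other controls for Cldn5, 151% for S1pr1 and 149% for Aqp1, but 50.5% for Aplnr and 110% for Cdh5. The control and PCOS means, 25.6 and 25.3 FPKM, differed by far less than the spread, and the log2 difference had the other sign (0.19, SE 0.40, limma adjusted p = 0.911). Cldn5 was singled out after its values were seen.

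**Figure D3:**
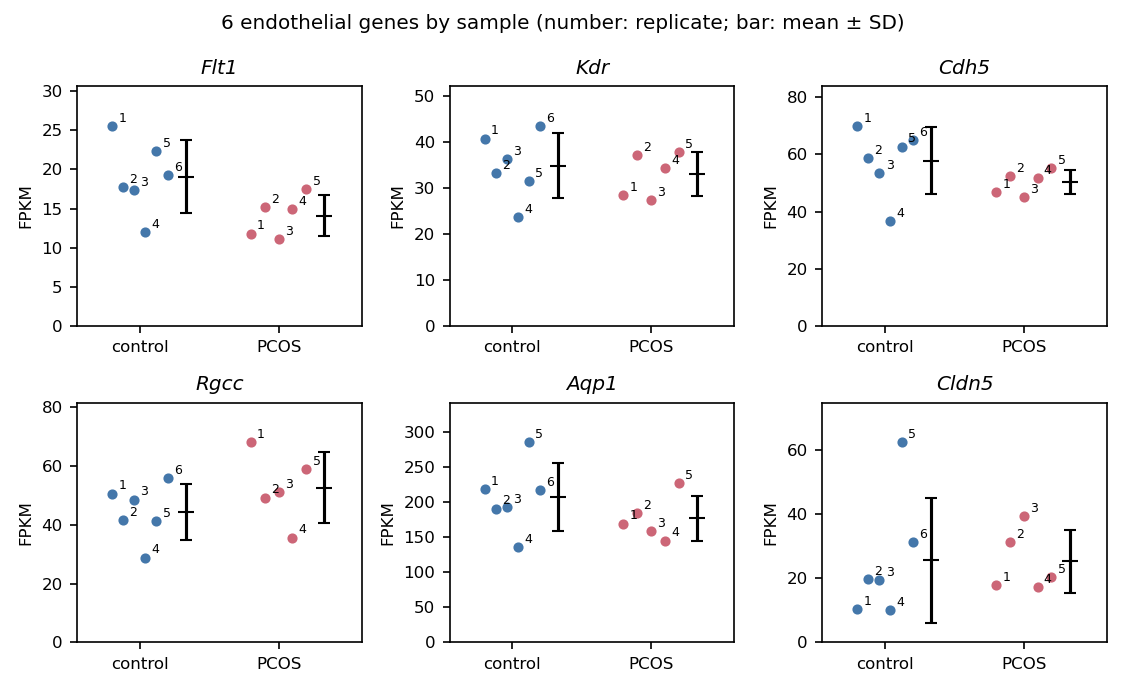
FPKM of Flt1, Kdr, Cdh5, Rgcc, Aqp1 and Cldn5 in each control and PCOS sample, with axes from 0; numbers are replicates and bars are mean ± SD (n = 6 and n = 5). Control replicate 4 is the lowest control in all 6 panels, and in Cldn5 control replicate 5 is at 62.3 FPKM.

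Of the 7 transcription factors, 5 were lower and 2 higher in PCOS, and none was called. Sox18, a SOX factor of vascular and lymphatic development, had a mean of 32.2 ± 5.91 FPKM in controls against 35.8 ± 4.89 FPKM in PCOS (log2 difference 0.16, SE 0.13, limma adjusted p = 0.795; 0.09 without control replicate 4). Its relatives lay on either side of 0, with Sox7 at 11.8 and 10.7 FPKM and Sox17 at 5.24 and 5.43 FPKM in control and PCOS means. Meox2 had a median of 13.0 FPKM in controls against 11.9 FPKM in PCOS (log2 difference -0.23, SE 0.20, limma adjusted p = 0.807). PCOS replicate 1 was the lowest of all samples for it, at 6.62 FPKM, and the other PCOS samples lay between 10.8 and 13.7 FPKM, inside the control range, which ended at 19.5 FPKM. The Meox2 difference was -0.07 without PCOS replicate 1 and -0.11 without control replicate 6. Tcf15, its partner in the fatty acid programme, was at 29.6 and 29.0 FPKM. The ETS factors Erg (9.98 and 9.45 FPKM) and Fli1 (6.07 and 5.69 FPKM) differed between groups by less than their control SD.

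Genes of transport and vessel tone gave the same picture. Fabp4 ran from 596 FPKM in control replicate 4 to 1285 FPKM in control replicate 6, with a control median of 794 FPKM, and PCOS replicates 1 to 5 were at 944, 989, 859.6, 851 and 909 FPKM. Its PCOS samples lay close together inside the wide control range (log2 difference 0.13, SE 0.15, limma adjusted p = 0.834); the difference was 0.26 without control replicate 6 (limma adjusted p = 0.185) and 0.04 without control replicate 4. Aqp1 averaged 206.4 ± 48.4 FPKM in controls against 176.7 ± 31.8 FPKM in PCOS (log2 difference -0.21, SE 0.16, limma adjusted p = 0.791). Leaving out control replicate 4 gave -0.32, and leaving out control replicate 5, the highest sample, gave -0.11. Red cells also hold Aqp1. The 5 erythroid markers were all higher in PCOS, with a median log2 difference of 0.75. All 5 had an unadjusted p under 0.05 (limma), where 6.68% of all tested rows did, and none was called. The part of red cells in the Aqp1 values was not tested. The carbonic anhydrase Car4 was at 14.03 and 14.8 FPKM. Nos3, the endothelial nitric oxide synthase, averaged 14.3 ± 2.50 FPKM in controls against 14.4 ± 2.12 FPKM in PCOS (log2 difference 0.02, 95% confidence interval -0.25 to 0.28, limma adjusted p = 0.977). Egfl7, a secreted factor of the vessel wall, was at 79.7 ± 14.2 and 88.2 ± 9.61 FPKM (log2 difference 0.16, SE 0.12, limma adjusted p = 0.789; 0.09 without control replicate 4).

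The cell cycle regulator Rgcc had the largest difference upward. Its controls ran from 28.8 to 55.8 FPKM with a median of 45.01 FPKM, and PCOS replicates 1 to 5 were at 68.0, 49.3, 51.2, 35.7 and 58.9 FPKM. Replicates 1 and 5 lay above every control and replicate 4 below all controls but one (log2 difference 0.24, SE 0.17, limma adjusted p = 0.778). The difference was 0.12 without control replicate 4, 0.14 without PCOS replicate 1 and 0.37 without PCOS replicate 4. Rasip1, a Ras-interacting protein needed for vessel lumens, was at 21.2 ± 2.94 and 21.0 ± 2.62 FPKM, with the smallest variation of the 34 genes (12.6% over all samples).

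The endothelial genes moved together from sample to sample more than between the groups. In control replicate 4, 33 of 34 genes were below every other control, where 28.4% of all tested rows were; the exception was Aplnr, lowest in control replicate 5. The genes stood there at a median of 63.1% of the mean of the other controls, from 35.3% for Cldn5 to 81.2% for Aplnr, while all tested rows stood at a median of 94.9%. Over all 11 samples, 30 of 34 were lowest in this library, as were 21.0% of all tested rows. At the other end, 16 of 34 were highest in control replicate 6, as were 18.7% of all rows, and all 34 were above their 11-sample mean there, as were 46.6% of all rows. Among PCOS hearts, replicate 3 had 27 of 34 genes below their mean (53.8% of all rows, median deviation -0.19) and replicate 5 had 31 above (54.0% of all rows, median deviation 0.14). The SD was larger in controls than in PCOS for 31 of 34 genes and for 71.7% of all rows.

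**Figure D4:**
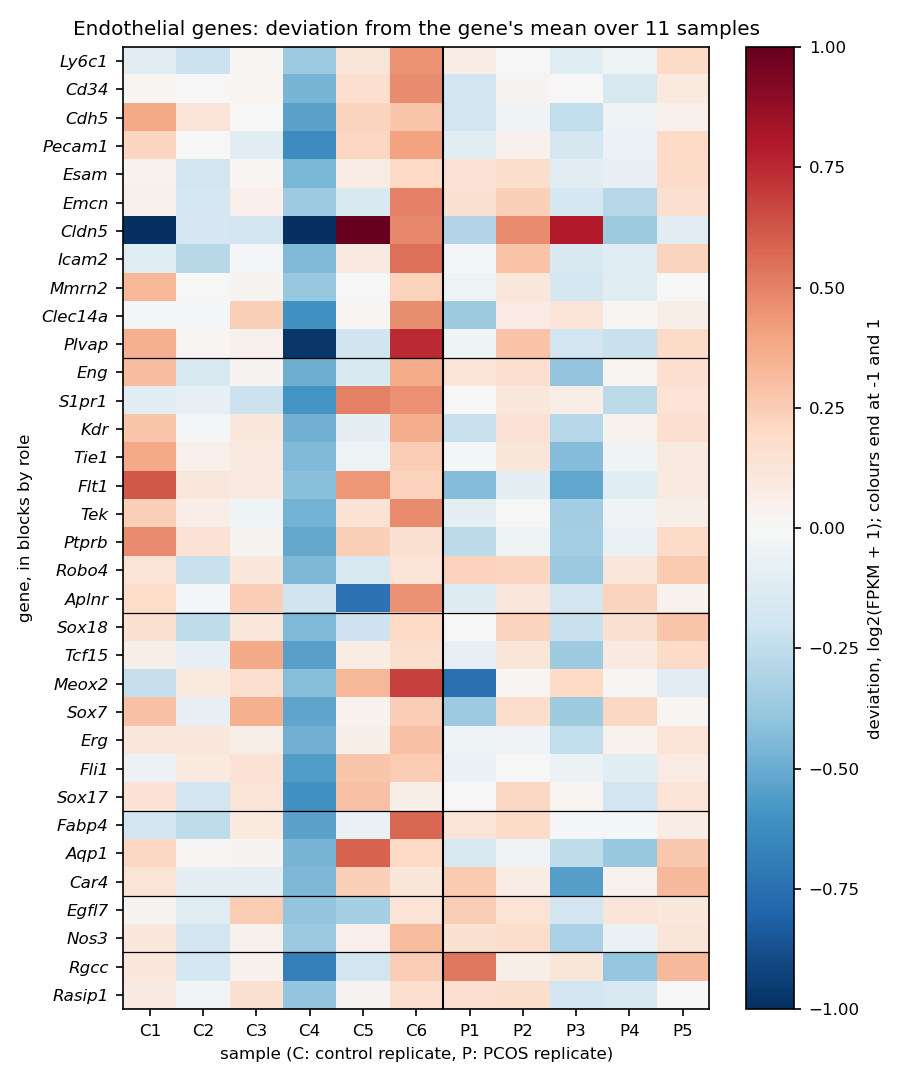
Deviation of each gene from its own mean over the 11 samples (log2(FPKM + 1), colour scale from -1 to 1), in blocks by role; columns are samples. Control replicate 4 is below the mean in all 34 genes and control replicate 6 above it in all 34. In control replicate 5, 5 genes have their highest value, Cldn5 among them.

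Most marker lists of other non-muscle cell types were also low in control replicate 4. Its median deviation was -0.47 for the endothelial genes, -0.56 for 6 fibroblast markers, -0.35 for 7 mural cell markers and -0.83 for 6 macrophage markers. It was -1.03 for 5 erythroid and -0.57 for 2 platelet markers, but 0.04 for 6 cardiomyocyte markers and -0.05 for all tested rows. Its summed fibroblast markers, 159 FPKM, were the lowest of the controls, whose highest was 332 FPKM, and PCOS samples had 251 to 293 FPKM. Mural markers were mixed, since Acta2 was highest of all samples in this library, at 130.4 FPKM, and their sum of 301 FPKM was not the lowest of the controls. The natriuretic peptide Nppa was highest in this library, at 1474 FPKM, while the atrial gene Myl7 was at 0 there and at most 2.51 FPKM in any sample. In control replicate 6 the fibroblast (332 FPKM), mural (403 FPKM) and platelet (26.4 FPKM) sums were the highest of all samples, as was the adipocyte sum. Such sums follow the most abundant genes, such as Dcn at 242.5 FPKM there. By median deviation, fibroblast markers were at 0.10 there against 0.28 in control replicate 1. Mural markers were at 0.06 there against 0.325 in PCOS replicate 5, while platelet markers, at 0.346, were again highest there. The part of tissue composition in these values was not tested. In PCOS replicate 3 macrophage markers deviated by 0.60 while the endothelial genes deviated by -0.19.

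**Figure D5:**
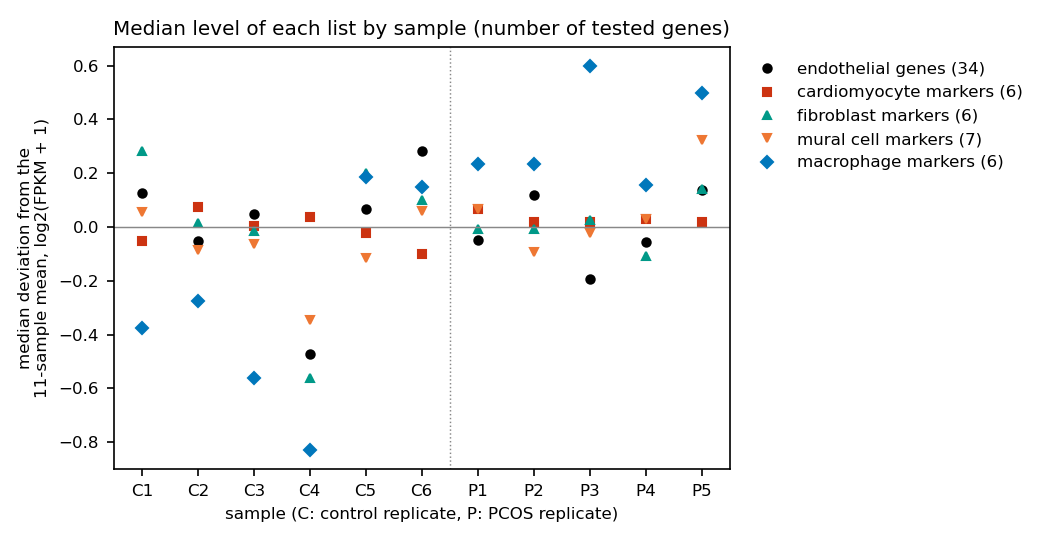
Median deviation from the 11-sample mean (log2(FPKM + 1)) of the 34 endothelial genes and of 4 marker lists in each sample. In control replicate 4 the endothelial genes are at -0.47, with fibroblast, mural and macrophage markers also below 0 and cardiomyocyte markers at 0.04.

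The even split of directions depended on single libraries. Without control replicate 4, 28 of 34 genes were lower in PCOS (median log2 difference -0.113, 6 genes at an unadjusted p under 0.05 against 6.4% of all rows). That library was singled out because these genes were low in it, at a median of 63.1% of the other controls. Leaving it out therefore lowers nearly all the differences by construction. The genes also move together, so such counts are not counts of independent results. Without control replicate 6, 11 were lower (median 0.073, 2 genes at an unadjusted p under 0.05 against 19.4% of all rows). Without PCOS replicate 2, 3 or 5, the number lower was 23, 13 or 24. Without control replicate 4 or 6, none of the 34 was called (smallest limma adjusted p = 0.527 and 0.185). With the mean of Pecam1 and Cdh5 as a covariate, which fixes those 2 genes, 8 of the other 32 were lower (median 0.073). In that fit 0 were called, and 3 had an unadjusted p under 0.05 (limma), where 8.83% of all rows did. Both covariate genes are members and were lower in PCOS (log2 differences -0.17 for Cdh5 and -0.04 for Pecam1). Adjusting for them moves genes that follow them upward in PCOS, so this count was partly built in. With sample weights, 12 were lower (median 0.044) and 4 had an unadjusted p under 0.05, where 18.9% of all rows did.

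Other genes of vessel biology, given by lists, also had no called member. Of 9 tested VEGF and angiopoietin ligands and co-receptors, 5 were lower and 4 higher (median log2 difference -0.004, all rows 0.002). The 2 with the smallest p were Pgf, placental growth factor, which binds Flt1 (2.35 ± 0.551 FPKM in controls, 2.80 ± 0.116 FPKM in PCOS), and Angpt1, the activating ligand of Tek (8.57 ± 2.07 and 7.11 ± 0.759 FPKM). Of 13 tested Notch and arterial genes, 7 were lower and 6 higher (median -0.003); they were led by the arterial connexin Gja4 (log2 difference 0.23, SE 0.11, limma adjusted p = 0.738) and Hey2, a Notch target (-0.10, SE 0.12). Venous and endocardial genes had a median of -0.136 over 5 tested, 3 lower and 2 higher, but 0.004 with no filter and 0.043 above a mean of 5 FPKM; they were led by the endocardial factor Nfatc1 (-0.15, SE 0.07, limma adjusted p = 0.738) and Cytl1 (0.22, SE 0.18).

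Lymphatic genes had a median of 0.065 over 6 tested, 2 lower and 4 higher, and turned to -0.048 when control replicate 4 was dropped and to -0.03 when PCOS replicate 2 was. Pdpn, podoplanin, averaged 2.09 ± 1.03 FPKM in controls against 2.88 ± 0.231 FPKM in PCOS, and Prox1, which lymphatic cells share with cardiomyocytes, at 7.95 ± 1.32 and 6.72 ± 1.24 FPKM. Fatty acid uptake genes had a median of 0.003 over 8 tested, 4 lower and 4 higher. Where 6.68% of all tested rows had an unadjusted p under 0.05 (limma), 2 of these 8 genes did. These were the fatty acid transporter Cd36, also abundant in cardiomyocytes (353 ± 31.8 and 313 ± 30.0 FPKM, log2 difference -0.18, SE 0.08, limma adjusted p = 0.738), and the nuclear receptor Pparg (3.41 ± 0.561 and 4.08 ± 0.483 FPKM, log2 difference 0.21, SE 0.10, limma adjusted p = 0.738). Endothelial activation genes had a median of 0.12 over 4 tested, 1 lower and 3 higher, with the leukocyte adhesion molecules Vcam1 (log2 difference 0.16, SE 0.14) and Icam1 (0.13, SE 0.12) first by p. Shear-responsive, anticoagulant and vasoactive genes had a median of -0.031 over 11 tested, 6 lower and 5 higher; they were led by the flow-induced factor Klf2 (121 ± 41.9 and 149 ± 45.7 FPKM, log2 difference 0.31, SE 0.24) and Gucy1b1, a subunit of the nitric oxide receptor (-0.10, SE 0.12). Flt4, Vegfb and Selp each stand in 2 lists, and Vegfd, Efnb2, Unc5b, Tfpi and Ece1 were not analysed here. Macrophage markers, for comparison, had a median of 0.58 over 6 tested of 9 listed. All 6 were higher in PCOS, while 49.4% of all rows were lower, and 1, Cd68, was called, as were 0.138% of all tested rows. Csf1r and Adgre1 were not analysed here, and Fcgr1, below the filter, averaged 0.80 FPKM in controls and 0.76 FPKM in PCOS.

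In GRCm38.p6 coordinates, Flt1 lies on chromosome 5 from 147561604 to 147726438 and Kdr on chromosome 5 from 75932827 to 75979072. Cdh5 spans 104101613 to 104144504 on chromosome 8, Pecam1 106654213 to 106715281 on chromosome 11, Cldn5 18776847 to 18778262 on chromosome 16 and Rgcc 79288750 to 79301635 on chromosome 14. The values are for whole genes as the authors counted them.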

How the data were processed

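Per the labels' protocols, a mirVana kit gave the RNA and a stranded TruSeq mRNA kit the libraries. Listed in the submitters' processing notes are the mm10 build, DESeq2 1.18.1 under R 3.4.1, HTSeq 0.13.5, HISAT2 2.2.1, and Trimmomatic 0.38 with FastQC 0.11.9; roles and strand setting are not given in the sources used here. The authors deposited gene-level FPKM, used as they stand, so levels are relative within a library. Accessions were matched to a RefSeq table of GRCm38.p6 (87.2% of rows). Groups were compared by limma (version 3.58.1, R 4.3.3) on log2(FPKM + 1), its variance trend included, over the 10891 rows having a mean of at least 1 FPKM over all 11 samples, with Benjamini-Hochberg adjustment over these rows. Fold changes on this scale are understated for low genes. Reads were recovered as whole multiples within 0.01 in 15939 rows, and were used for depth and for limma's voom; intervals cover the spread between samples only. Scripts were tested on simulated data. Chosen for closer description were, in each role, the 2 genes with the smallest p. Pecam1, Cdh5, Kdr, Nos3, Fabp4 and Vwf (not analysed here) were added, and in each further list the 2 with the smallest p. Some of these are given by mean and SD only, or without an adjusted p. Members, lists and tests were chosen with earlier results of these data known. Alternatives covered the pseudocount (0.1), filters (none, 5), median-ratio and quantile scaling, sample weights, the replicate number as a block, the level of Pecam1 and Cdh5 as a covariate, voom and leaving out each sample. The planned edgeR and DESeq2 fits were not run, since count models were kept for deposited counts; voom on the recovered reads was added in their place after the data were seen. Pecam1 and Cdh5 were left out of the fit that used them as a covariate. Same-numbered samples had correlations of their deviations from -0.12 to 0.25, so the numbers were not taken as pairs.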

Additional observations from a re-analysis of the deposited data

Results flagged for a closer look

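A check of each group of samples for 1 value far from the rest was run on the 34 endothelial genes and the 14 genes chosen from the further lists, 96 groups in all. It picked 6, and chance gives about 1 in 20, or 4.8. Among endothelial genes it picked the surface gene Clec14a in PCOS replicate 1 (6.02 FPKM, next 8.10 FPKM), Robo4 in PCOS replicate 3 (10.8 FPKM, next 15.5 FPKM) and Erg in control replicate 4 (6.62 FPKM, next 10.1 FPKM), each as the lowest of its group. Among the others it picked Pgf in control replicate 6 (3.39 FPKM, next 2.33 FPKM) and Vcam1 in PCOS replicate 2 (11.1 FPKM, next 9.64 FPKM) as the highest, and Angpt1 in PCOS replicate 1 (5.79 FPKM, next 7.17 FPKM) as the lowest.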

How the results depend on the processing

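The count of endothelial genes called was 0 in all 20 alternatives, and so was that of each of the 7 further lists. The median of the 34 genes lay between -0.113 and 0.073. Of the further lists, only endothelial activation kept the sign of its median in all 20; the others crossed 0, within -0.173 to 0.201. Over all tested rows, the 15 called became 23 with Pecam1 and Cdh5 as a covariate, 25 with the replicate block, 25 with sample weights, 5 above a mean of 5 FPKM and 10 to 32 with a sample left out. The number of the 34 lower in PCOS, 17, was 8 of 32 with the covariate, 11 with the replicate block, and 11 to 28 when a sample was left out. The block fit, to which control replicate 6 adds nothing because no PCOS sample shares its number, had 4 genes at an unadjusted p under 0.05, where 18.0% of all rows did, and its smallest adjusted p was 0.101, for Rgcc. Small differences changed sign. Pecam1 (-0.036) was 0.042 with the block and 0.024 with sample weights, and -0.165 to 0.042 with a sample left out. Kdr (-0.059) was 0.009 and 0.025 in the same order, 0.031 with the covariate, and -0.161 to 0.009. Rasip1 (-0.009) was 0.024 and 0.002, 0.045 with the covariate, 0.004 after quantile normalization, and -0.089 to 0.039. Nos3 (0.018) was -0.054 to 0.102 with a sample left out. The causes were not tested. None of the 28 genes chosen for closer description crossed the threshold in any alternative run.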

Other observations

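The ratio of Flt1 to Kdr in FPKM, chosen after the values were seen and not tested, was 0.628, 0.535, 0.481, 0.505, 0.711 and 0.444 in control replicates 1 to 6. In PCOS replicates 1 to 5 it was 0.415, 0.409, 0.405, 0.435 and 0.462. The groups overlapped through control replicate 6, and control replicate 4, low in both genes, lay among the other controls. The ratio of Cdh5 to Pecam1 ran from 1.03 to 1.27 in controls and from 1.02 to 1.14 in PCOS, with control replicate 6 lowest of the controls.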
